A study of Mus musculus with 25 samples.

Results

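The genes described here encode the proteasome and the proteins that assemble and activate it. They were chosen by symbol, as every probe whose gene symbol was Psm followed by a letter from a to g and a number. The rule took 86 of the 45281 probes on the array and 49 of its 19057 genes with 1 symbol. It also took Psmc3ip and Psme3ip1, which encode proteins named after their binding to a proteasome component and are not subunits, so that 47 genes remained by role. Of the 49 genes, 43 had at least 1 probe detected above background (detection p under 0.01) on at least 2 of the 25 arrays, and every count of members below is out of those 43. The probes of Psma1, Psma3, Psma6, Psmb11, Psmd3 and Psmg4 did not pass that filter. All 6 were detected on 0 arrays, so no level is given for these genes.

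The study exposed mouse embryonic stem cells to 12 chemicals and measured mRNA with Illumina Mouse WG-6 bead arrays. The cells were the B6G-2 line, a single GFP-expressing C57BL/6 line, grown on deactivated mouse fibroblasts that were removed before embryoid bodies were formed. Exposure began some hours after the cells were seeded to form embryoid bodies and lasted 48 h, and RNA was taken at its end. The 48 h are those of the paper's methods, while its abstract gives a shorter time. Vehicle cells received 0.1% DMSO and had 1 array. Estradiol (E2), dihydrotestosterone (DHT), triiodothyronine (T3), dexamethasone (DEX), the dioxin TCDD and a hydroxylated polychlorinated biphenyl (PCB) were each given at 1 and 10 nM. Bisphenol A (BPA) was given at 1 and 100 pM. Thalidomide (TMD), permethrin (PMT) and cyclopamine (CPM) were given at 0.1 and 10 µM, and the phthalate DEHP and methoprene acid (MPA) at 1 and 100 µM. Each dose had 1 array, so the spread came from the doses of a chemical or from the chemicals of a group, and no p-value here measures the spread between cultures.

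The proteasome is the protease that degrades proteins tagged with ubiquitin. Its 20S core is a barrel with outer alpha rings and inner beta rings, and 3 beta subunits carry the active sites, Psmb5 (chymotrypsin-like), Psmb6 (caspase-like) and Psmb7 (trypsin-like). Interferon replaces them in newly built particles with Psmb8, Psmb9 and Psmb10, which form the immunoproteasome and yield peptides for MHC class I. The 19S cap binds ubiquitinated substrates, removes the ubiquitin chain with Psmd14 and unfolds the protein with a ring of ATPases, Psmc1 to Psmc6. Psme1 and Psme2 form the interferon-inducible PA28 activator, Psme3 the nuclear PA28 gamma and Psme4 the activator PA200. Dedicated chaperones build the core (Psmg1 to Psmg4) and the base of the cap (Psmd5, Psmd9, Psmd10) and are absent from the finished particle.

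All values are log2 fluorescence signals after background correction and quantile normalization of the 25 arrays, so a difference of 1 is a doubling. The arrays fell into groups by dose range in the labels and by the sets in which the authors had normalized them. These were DMSO, E2 and DHT (5 arrays), T3, DEX, TCDD and PCB (8 arrays), DEHP and MPA (4 arrays), TMD, PMT and CPM (6 arrays), and BPA (2 arrays). The authors' table held 2 normalization sets, of 7 arrays (DMSO, E2, DHT and BPA) and 18 arrays. A comparison of DMSO, E2 and DHT with any group but BPA therefore crossed the sets, and set and chemical cannot be told apart in it. Between 14451 and 16381 probes were detected per array. The E2 10 nM array stood apart from the other 4 of its group for several members, and results that rested on it are given with their value without it. In bulk RNA, fewer cells of a type and less mRNA per cell cannot be told apart.

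The members varied less across the 25 arrays than genes in general. Their median range, highest minus lowest log2 signal of a gene, was 0.718 against 1.24 for all 10656 genes kept, and 30 of 43 members (69.8%) stayed within a range of 1, against 33.1% of all genes. Psmb8 had the widest range, 3.63, followed by Psmd14 with 2.17, Psmd6 with 2.15 and Psmc6 with 2.05. Psmb6 had the narrowest, 0.267. The 21 members with a mean log2 signal over 12 moved less than the 22 dimmer ones: the median size of their difference between TMD, PMT and CPM and DMSO, E2 and DHT was 0.149 against 0.595. The genes kept were not matched to the members for signal level. Detection on 2 arrays was enough to keep a gene, whereas 40 members were detected on all 25 arrays. Whether signal near the top of the scale compressed differences was not tested.

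**Figure D1:**
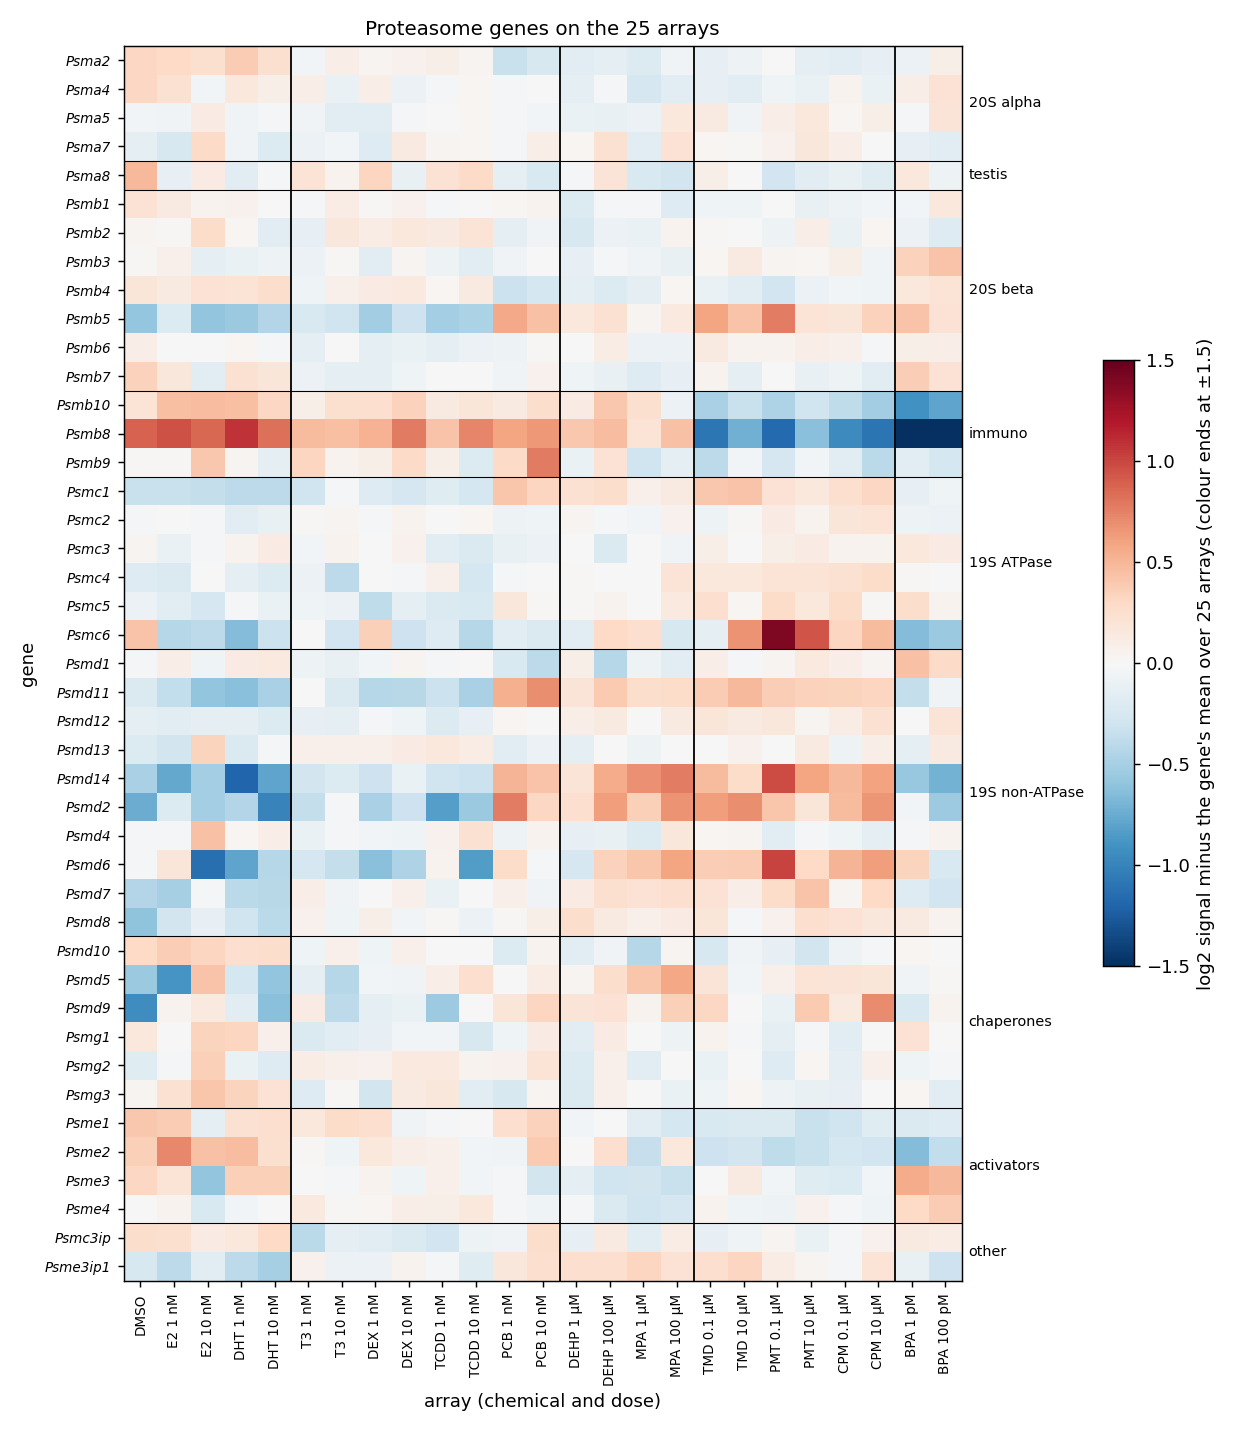
Log2 signal of the 43 detected members (rows, grouped by role) on each of the 25 arrays (columns, chemical and dose), shown as the difference from the gene's mean over all arrays, with vertical lines between array groups. Psmb8 and Psmb10 are low on the TMD, PMT, CPM and BPA arrays. Psmd14, Psmd2, Psmd11, Psmc1 and Psmb5 lie below their means on the DMSO, E2, DHT, T3, DEX and TCDD arrays, and all but Psmb5 on the BPA arrays. The colour scale ends at 1.5, which the 2 BPA arrays exceed for Psmb8.

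Against DMSO, E2 and DHT, members moved in both directions in every array group. In TMD, PMT and CPM, 15 members were higher (34.9%) and 13 lower (30.2%), where 25.2% of all genes were called higher and 29.9% lower. In DEHP and MPA, 12 were higher (27.9%) and 11 lower (25.6%), with 17.3% and 26.3% of all genes. In T3, DEX, TCDD and PCB, 5 were higher (11.6%) and 8 lower (18.6%), with 10.7% and 11.9% of all genes. In BPA, 6 were higher (14%) and 4 lower (9.3%), with 13% and 13.3% of all genes. These calls are limma tests on the mean of each chemical's doses, at a Benjamini-Hochberg adjusted p under 0.05 over all probes kept. The median difference of the 43 members was close to that of all genes in each comparison, 0.03 and -0.05 in TMD, PMT and CPM, -0.05 and -0.07 in DEHP and MPA, 0.00 and -0.02 in T3, DEX, TCDD and PCB, and 0.07 and 0.05 in BPA. The split by direction depended on the scaling. With the authors' normalized values the median of all genes lay 0.24, 0.20 and 0.28 above DMSO, E2 and DHT in the first 3 comparisons, and the member counts became 26 higher and 5 lower, 20 and 0, and 22 and 0. With each array of the authors' table centred they were 15 and 13, 12 and 15, and 5 and 11. Median scaling left 1 member higher and 6 lower in BPA. Without the E2 1 nM array the count for T3, DEX, TCDD and PCB was 2 higher and without the E2 10 nM array 8 higher, and without the DMSO array BPA had 3 higher.

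**Figure D2:**
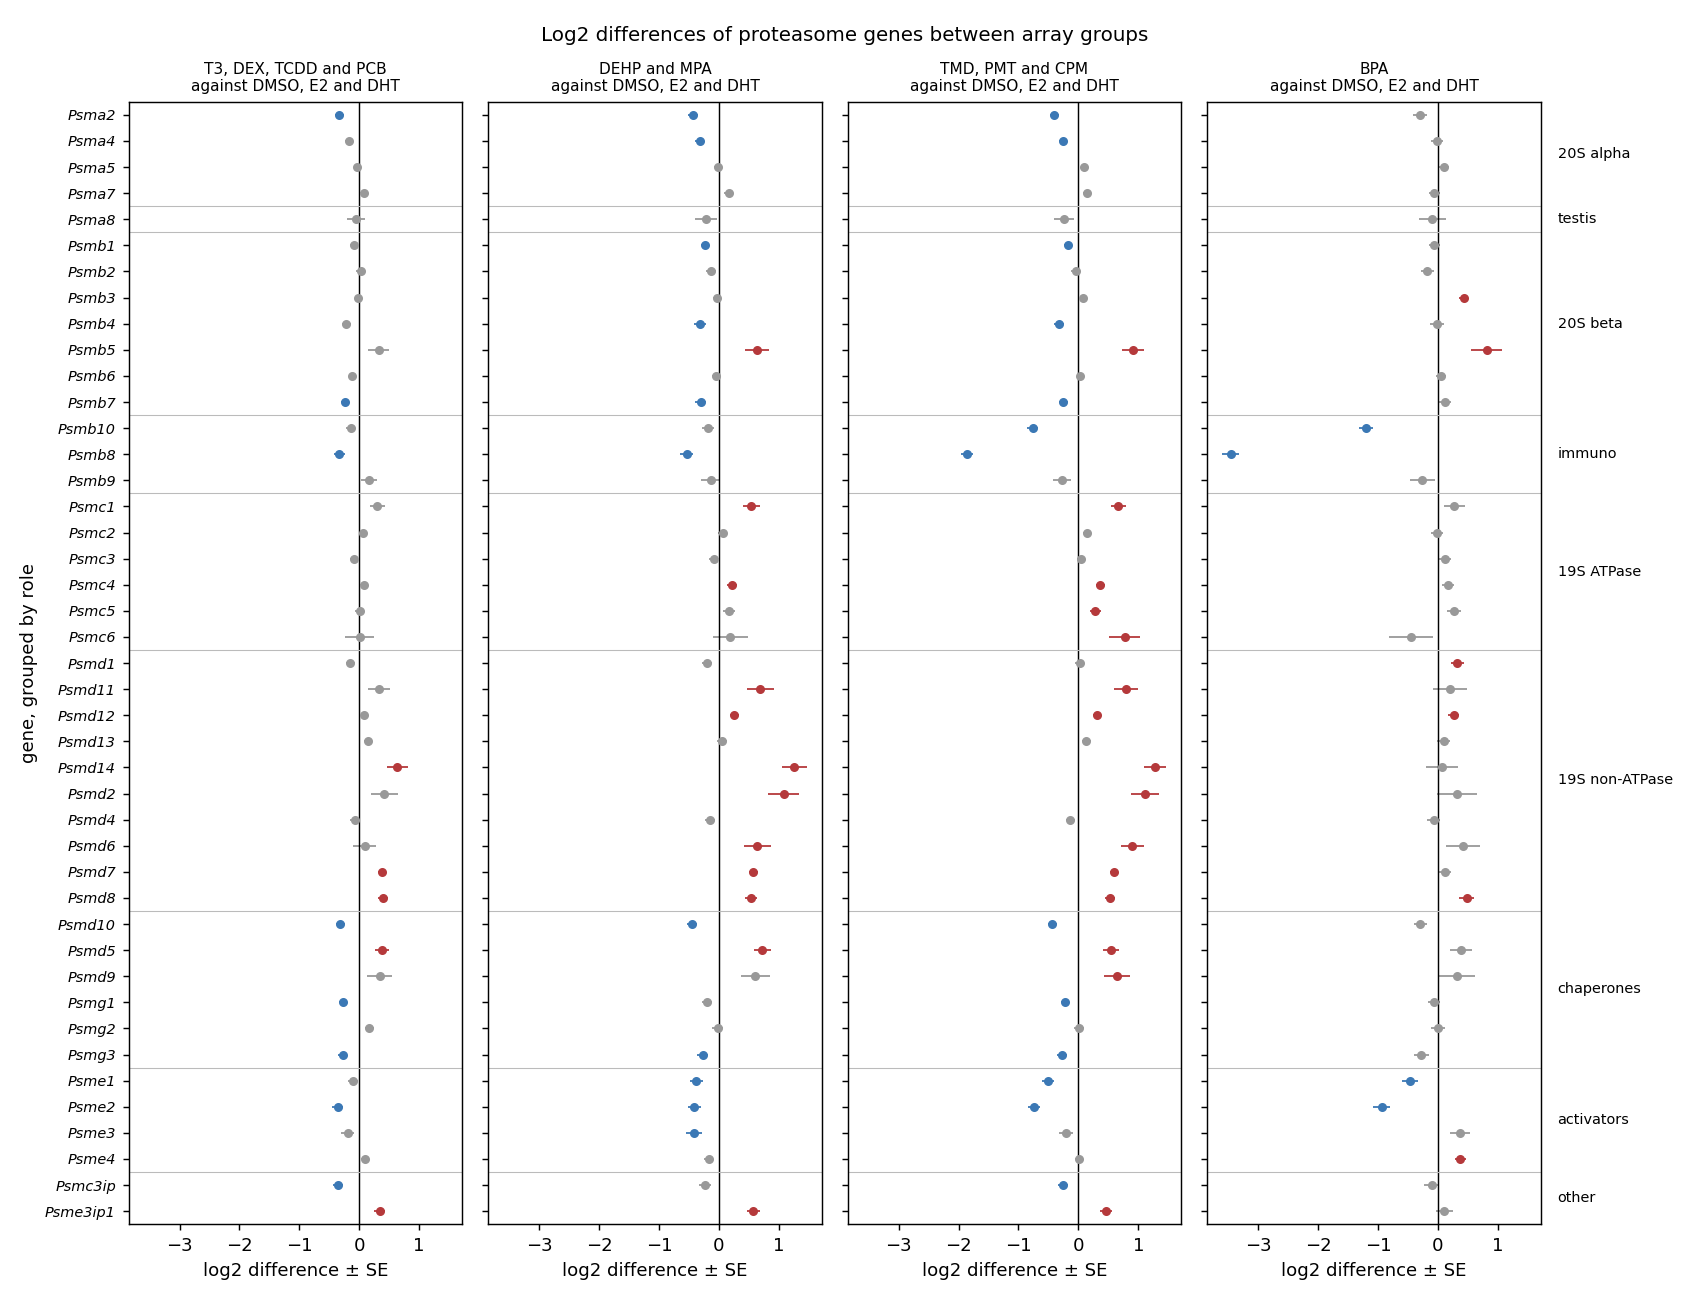
Log2 difference (x axis, with its standard error as bars) of each of the 43 members (y axis, grouped by role) between each of the 4 other array groups and DMSO, E2 and DHT. Red points were higher and blue points lower at an adjusted p under 0.05, and grey points did not pass. In TMD, PMT and CPM and in DEHP and MPA, the called 19S subunits, ATPases and others alike, lie to the right of 0 and the called PA28 genes to the left.

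The immunoproteasome gene Psmb8 moved most of all members. Psmb8 encodes the inducible counterpart of Psmb5 and takes the chymotrypsin-like site. Its log2 signal was 9.49 in DMSO, 9.56 and 9.48 in E2 (1 and 10 nM) and 9.69 and 9.44 in DHT. In T3, DEX, TCDD and PCB it ran from 9.05 to 9.40 with a median of 9.17, and in DEHP it was 9.02 and 9.07 and in MPA 8.82 and 9.05. In TMD it was 7.53 and 7.90, in PMT 7.44 and 7.98, in CPM 7.66 and 7.52, and in BPA 6.08 and 6.07. No TMD, PMT or CPM array overlapped the DMSO, E2, DHT, T3, DEX, TCDD, PCB, DEHP or MPA arrays, and the BPA arrays lay below every other array. Psmb8 was 3.62-fold lower in TMD, PMT and CPM than in DMSO, E2 and DHT (log2 difference -1.85, SE 0.10, limma adjusted p = 2.56e-08) and 10.97-fold lower in BPA (-3.46, SE 0.14, limma adjusted p = 8.08e-10). The fall in BPA lay within 1 normalization set of the authors. BPA entered this fit as 1 value, the mean of its doses, so the SE of each BPA difference came from the spread among the chemicals of the other groups, and with the methods' t-test Psmb8 in BPA did not pass (adjusted p = 0.081). A contrast added after the values had been seen put TMD, PMT and CPM 1.32 below DEHP and MPA, also within 1 set (log2 difference -1.32, SE 0.11, limma adjusted p = 2.07e-06). The differences in DEHP and MPA (-0.54) and in T3, DEX, TCDD and PCB (-0.33) also passed. Neither passed with the authors' normalized values (-0.26 and -0.05, limma adjusted p = 0.0812 and 0.695). The latter did not pass without the E2 1 nM array (-0.32, limma adjusted p = 0.0558), and with the mean of both Psmb8 probes they became 0.04 and 0.21. The second Psmb8 probe was detected on 0 of the 13 DMSO, E2, DHT, TMD, PMT, CPM and BPA arrays, so its differences for those groups have no measured level on either side.

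Psmb10, the inducible counterpart of Psmb7, followed the same order of groups with smaller steps. Its log2 signal was 11.07 in DMSO, 11.31 and 11.33 in E2, 11.32 and 11.17 in DHT, and ran from 10.34 to 10.56 with a median of 10.44 in TMD, PMT and CPM. In T3, DEX, TCDD and PCB it ran from 10.95 to 11.21 with a median of 11.07, in DEHP it was 10.99 and 11.27, in MPA 11.10 and 10.78, and in BPA 9.95 and 10.07. The TMD, PMT and CPM arrays lay below all arrays of the 3 groups before them and above both BPA arrays. Psmb10 fell by 0.77 in TMD, PMT and CPM (SE 0.09, limma adjusted p = 5.54e-06) and by 1.20 in BPA (SE 0.12, limma adjusted p = 5.71e-06) on the log2 scale. The differences were -0.18 in DEHP and MPA and -0.15 in T3, DEX, TCDD and PCB, and neither passed. A second Psmb10 probe agreed in BPA (-1.24) and TMD, PMT and CPM (-0.28) but was higher in DEHP and MPA (0.43) and in T3, DEX, TCDD and PCB (0.29). Psmb9, the counterpart of Psmb6, did not pass in any of the 4 comparisons. Its differences were -0.27, -0.14, 0.16 and -0.26 in TMD, PMT and CPM, in DEHP and MPA, in T3, DEX, TCDD and PCB, and in BPA, and its 25 signals ran from 7.73 to 8.91.

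The constitutive catalytic genes did not move as a set. Psmb5 was 10.71 in DMSO, 11.09 and 10.70 in E2 and 10.74 and 10.86 in DHT. It was 11.45 and 11.52 in DEHP, 11.34 and 11.44 in MPA and 11.72 and 11.51 in BPA, and ran from 11.47 to 12.06 with a median of 11.68 in TMD, PMT and CPM. In the nanomolar group the PCB arrays, at 11.86 and 11.73, stood above T3, DEX and TCDD, which ran from 10.77 to 11.06. All DEHP, MPA, TMD, PMT, CPM, BPA and PCB arrays lay above all DMSO, E2 and DHT arrays. Psmb5 rose by 0.91 in TMD, PMT and CPM (SE 0.18, limma adjusted p = 0.000768), by 0.64 in DEHP and MPA (SE 0.20, limma adjusted p = 0.021) and by 0.81 in BPA (SE 0.26, limma adjusted p = 0.0328). Without the DMSO array the last 2 did not pass (limma adjusted p = 0.0612 and 0.0709), nor did BPA without the E2 10 nM or the BPA 1 pM array. Psmb6 differed by -0.12 to 0.06 across the 4 comparisons, none passing, while a second Psmb6 probe rose by 0.25 in TMD, PMT and CPM. Psmb7 fell by 0.25, 0.30 and 0.24 in TMD, PMT and CPM, in DEHP and MPA, and in T3, DEX, TCDD and PCB, but these did not pass without the E2 1 nM array (limma adjusted p = 0.112, 0.0955 and 0.194), nor did the first and the third without the DMSO array. They were -0.02, -0.07 and -0.01 with the authors' normalized values. The other 3 Psmb7 probes were near 0 or above there, with differences from -0.21 to 0.24 and none passing. In TMD, PMT, CPM and BPA Psmb5 was thus higher while Psmb8, which takes the same site, was lower. The same held in DEHP and MPA, where Psmb8 fell by less (log2 difference -0.54) and did not pass with the authors' normalized values. In PCB Psmb5 was also high, while Psmb8, at 9.20 and 9.26, lay within the 9.05 to 9.40 of T3, DEX and TCDD.

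**Figure D3:**
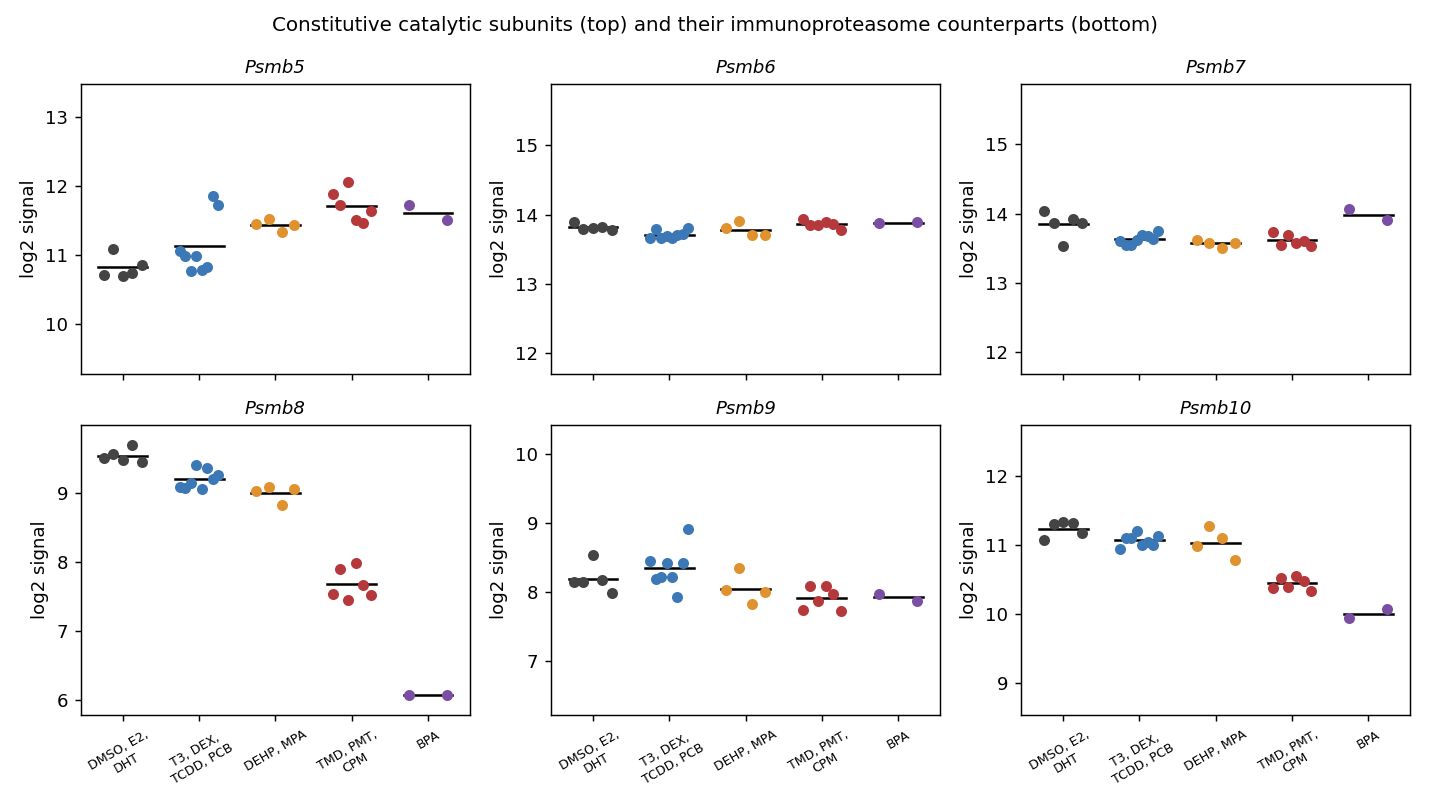
Log2 signal (y axis, spanning the same number of log2 units in every panel) of the 3 constitutive catalytic genes (top) and their immunoproteasome counterparts (bottom) on each array (points) by array group (x axis), with the group mean as a line. Psmb8 drops from between 9.44 and 9.69 in DMSO, E2 and DHT to between 7.44 and 7.98 in TMD, PMT and CPM and to 6.07 and 6.08 in BPA, while Psmb6 stays between 13.66 and 13.93 on all arrays.

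The promoter windows of 41 of the 49 members were in the RefSeq table (GRCm38.p6). Those of 5 members, picked by hand, are shown in the order Psmb8, Psmb9 and Psmb10 (immunoproteasome), Psmb5 (constitutive) and Psmd14 (19S deubiquitinase). They are not the 5 that varied most: Psmd6 (range 2.15) and Psmc6 (2.05) varied more than Psmb10 (1.38) and Psmb5 (1.36). Each window has 300 bases around the annotated start, written 5′ to 3′ on the gene's strand, and capitals mark every match, on either strand, to 4 motifs. These were the interferon-stimulated response element core GAAANNGAA, the gamma-interferon activated site TTCNNNGAA, the antioxidant response element core TGANNNNGC and the CCAAT box, CCAAT.
Psmb8 (chr17:34197945-34198244, plus strand): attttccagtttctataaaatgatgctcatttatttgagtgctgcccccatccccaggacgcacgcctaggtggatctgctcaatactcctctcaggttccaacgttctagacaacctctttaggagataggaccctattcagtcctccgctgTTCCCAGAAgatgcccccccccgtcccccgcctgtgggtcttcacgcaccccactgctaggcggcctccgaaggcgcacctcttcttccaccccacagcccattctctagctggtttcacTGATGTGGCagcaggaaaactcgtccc
Psmb9 (chr17:34187281-34187580, minus strand): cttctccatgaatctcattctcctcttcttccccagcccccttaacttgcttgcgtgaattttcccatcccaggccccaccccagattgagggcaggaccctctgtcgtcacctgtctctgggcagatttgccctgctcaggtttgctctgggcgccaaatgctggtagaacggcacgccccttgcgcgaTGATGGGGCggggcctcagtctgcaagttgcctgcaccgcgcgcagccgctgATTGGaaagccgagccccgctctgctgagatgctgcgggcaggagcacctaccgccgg
Psmb10 (chr8:105938343-105938642, minus strand): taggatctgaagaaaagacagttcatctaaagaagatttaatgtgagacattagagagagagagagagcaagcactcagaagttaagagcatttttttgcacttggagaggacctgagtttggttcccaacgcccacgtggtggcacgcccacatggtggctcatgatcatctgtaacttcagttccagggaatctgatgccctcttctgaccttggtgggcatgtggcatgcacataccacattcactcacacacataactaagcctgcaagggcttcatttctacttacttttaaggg
Psmb5 (chr14:54617946-54618245, minus strand): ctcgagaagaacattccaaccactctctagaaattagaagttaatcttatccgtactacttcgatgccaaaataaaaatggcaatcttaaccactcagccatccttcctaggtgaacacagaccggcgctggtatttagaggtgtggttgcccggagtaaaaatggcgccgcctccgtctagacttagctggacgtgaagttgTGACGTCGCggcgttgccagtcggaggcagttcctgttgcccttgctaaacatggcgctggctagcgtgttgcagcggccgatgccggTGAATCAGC
Psmd14 (chr2:61711444-61711743, plus strand): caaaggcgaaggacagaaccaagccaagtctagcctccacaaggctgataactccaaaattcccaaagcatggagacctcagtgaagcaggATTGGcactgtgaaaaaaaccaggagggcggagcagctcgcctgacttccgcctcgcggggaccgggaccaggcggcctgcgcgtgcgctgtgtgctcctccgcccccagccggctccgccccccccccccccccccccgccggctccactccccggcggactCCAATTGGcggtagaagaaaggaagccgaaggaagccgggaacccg

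The Psmb8 window held 1 palindromic TTCNNNGAA match, in capitals as the first run, and 1 TGANNNNGC match. Psmb9 held 1 TGANNNNGC and 1 CCAAT match, Psmb10 held none of the 4 motifs, Psmb5 held 2 TGANNNNGC matches, and Psmd14 held 3 CCAAT matches, 2 of which overlap in the run CCAATTGG. A match is a description of the letters and not a site of binding. Among all 27025 promoter windows 8.57% held GAAANNGAA, 8.47% TTCNNNGAA, 41.4% TGANNNNGC and 37.9% CCAAT. Among the 41 member windows the counts were 6 (14.6%), 3 (7.32%), 23 (56.1%) and 15 (36.6%).

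Of the activators, the interferon-inducible pair fell. Psme2, the PA28 beta subunit, was 10.00 in DMSO, 10.35 and 10.07 in E2 and 10.10 and 9.87 in DHT. It was 8.99 and 9.26 in BPA and ran from 9.25 to 9.37 with a median of 9.34 in TMD, PMT and CPM. The BPA and the TMD, PMT and CPM arrays all lay below the DMSO, E2 and DHT arrays. Psme2 fell by 0.94 in BPA (SE 0.14, limma adjusted p = 0.000223), by 0.74 in TMD, PMT and CPM (SE 0.10, limma adjusted p = 2.69e-05), by 0.41 in DEHP and MPA and by 0.36 in T3, DEX, TCDD and PCB. The last did not pass without the PCB 1 nM array (limma adjusted p = 0.0672). Psme1, the PA28 alpha subunit, fell by 0.51, 0.37 and 0.46 in TMD, PMT and CPM, in DEHP and MPA, and in BPA. The last 2 did not pass without the E2 1 nM array (limma adjusted p = 0.117 and 0.143), and BPA did not pass without the DMSO array either. Psme3 fell by 0.42 in DEHP and MPA. It was 10.86 on the E2 10 nM array against 11.65 to 11.81 on the other 4 arrays of that group, and its call in DEHP and MPA was lost without the E2 1 nM array (-0.29, limma adjusted p = 0.274) or the DMSO array. In the authors' normalized values the falls of Psme1, Psme2 and Psme3 in DEHP and MPA (-0.13, -0.15 and -0.18) and of Psme2 in T3, DEX, TCDD and PCB (-0.09) did not pass. Psme4 rose by 0.38 in BPA (SE 0.09, limma adjusted p = 0.00835), where its arrays read 13.37 and 13.45 against 12.84 to 13.12 in DMSO, E2 and DHT. With median scaling that difference was 0.22 and did not pass.

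The core's structural subunits moved little. Among the 4 detected alpha ring genes Psma2 and Psma4 were lower in TMD, PMT and CPM (by 0.40 and 0.26) and in DEHP and MPA (by 0.44 and 0.32), and Psma2 also in T3, DEX, TCDD and PCB (by 0.33). Psma2 read 15.01 to 15.15 in DMSO, E2 and DHT and 14.56 to 14.77 in TMD, PMT, CPM, DEHP and MPA, without overlap. Psma5 and Psma7 differed by -0.06 to 0.16 and did not pass. A second Psma5 probe was detected on 0 of the 5 DMSO, E2 and DHT arrays, and no difference is given for it. Of the beta ring genes Psmb1 (by 0.17 and 0.23) and Psmb4 (by 0.32 and 0.31) were lower in TMD, PMT and CPM and in DEHP and MPA. The calls of Psmb1 were lost without the DMSO array (limma adjusted p = 0.13 and 0.06). With the authors' normalized values none of these 8 differences of Psma2, Psma4, Psmb1 and Psmb4 passed, and Psmb1 in TMD, PMT and CPM became 0.027. Psmb3 rose by 0.43 in BPA (SE 0.08, limma adjusted p = 0.00141), with 13.93 and 14.02 against 13.44 to 13.66 in DMSO, E2 and DHT, and with median scaling by a value of 0.24 that did not pass. Psmb2 did not pass in any of the 4 comparisons. Psma8, the alpha subunit of the testis proteasome, was detected on all 25 arrays and did not pass between groups. Its 25 signals ran from 7.83 to 8.60, with the highest on the DMSO array. Psmb11, the thymus-specific beta subunit, was among the genes not detected.

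The called 19S cap members were higher in the 4 comparisons with DMSO, E2 and DHT. Among the 10 detected non-ATPase subunits 7 rose in TMD, PMT and CPM and 7 in DEHP and MPA, 3 in T3, DEX, TCDD and PCB and 3 in BPA, and 0 were lower in any of the 4 by limma at the adjusted threshold. Of all genes 25.2%, 17.3%, 10.7% and 13% were called higher there. The medians over the 10 were 0.56, 0.56, 0.24 and 0.24, against -0.05, -0.07, -0.02 and 0.05 over all genes. Psmd14, the deubiquitinase of the lid, was 10.11 in DMSO, 9.84 and 10.09 in E2 and 9.41 and 9.81 in DHT. It was 10.79 and 11.16 in DEHP, 11.29 and 11.37 in MPA and 10.03 and 9.90 in BPA, and ran from 10.87 to 11.58 with a median of 11.14 in TMD, PMT and CPM. In T3, DEX, TCDD and PCB it ran from 10.28 to 11.11 with a median of 10.35, the highest 2 being the PCB arrays. Only the BPA arrays overlapped DMSO, E2 and DHT. Psmd14 rose by 1.27 in TMD, PMT and CPM (SE 0.18, limma adjusted p = 5.15e-05), by 1.26 in DEHP and MPA (SE 0.21, limma adjusted p = 0.000305) and by 0.63 in T3, DEX, TCDD and PCB (SE 0.17, limma adjusted p = 0.0178), and the difference in BPA was 0.07. Its second probe moved by 0.61, 0.58, 0.19 and 0.11, of which the first 2 passed, and with the mean of both probes the call in T3, DEX, TCDD and PCB was lost (0.41, limma adjusted p = 0.0787).

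Psmd2, a scaffold of the base that binds shuttle proteins carrying ubiquitinated cargo, was 6.73 in DMSO, 7.27 and 6.96 in E2 and 7.04 and 6.48 in DHT. It was 7.72 and 8.10 in DEHP, 7.83 and 8.15 in MPA, and ran from 7.66 to 8.17 with a median of 8.03 in TMD, PMT and CPM. Both groups lay above all DMSO, E2 and DHT arrays, and the rises were 1.08 (SE 0.26, limma adjusted p = 0.00452) and 1.11 (SE 0.24, limma adjusted p = 0.00109). Psmd11, a lid subunit, was 9.24 in DMSO, 9.09 and 8.86 in E2 and 8.83 and 8.97 in DHT, and lay between 9.65 and 9.95 on every DEHP, MPA, TMD, PMT and CPM array. It rose by 0.79 in TMD, PMT and CPM (SE 0.20, limma adjusted p = 0.00385) and by 0.69 in DEHP and MPA (SE 0.22, limma adjusted p = 0.0212). A second Psmd11 probe rose by 1.22 and 1.53 in TMD, PMT and CPM and in DEHP and MPA. A second Psmd2 probe was detected on all arrays of those 2 groups and on 0 of the 5 DMSO, E2 and DHT arrays, so that its rises are bounds, at least 1.69-fold and 1.98-fold, computed against the lowest signal called detected on each array. Psmd6 rose by 0.90 in TMD, PMT and CPM and by 0.64 in DEHP and MPA. It was 5.98 on the E2 10 nM array, where it was not detected, and 6.32 to 7.29 on the other DMSO, E2 and DHT arrays, and the rise in DEHP and MPA was 0.43 without the E2 10 nM array (limma adjusted p = 0.159).

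The remaining lid and base genes moved by smaller amounts. Psmd8 rose in all 4 comparisons, by 0.53, 0.53, 0.40 and 0.48, with 11.51 to 11.99 in DMSO, E2 and DHT and 12.03 to 12.38 on the other 20 arrays. Median scaling ended its call in BPA (0.38, limma adjusted p = 0.0503). Psmd12 rose by 0.31 and 0.26 in TMD, PMT and CPM and in DEHP and MPA, the latter not with median scaling (0.20, limma adjusted p = 0.0939), and its second probe rose by 1.09 and 0.96. Its call in BPA (0.27) was lost in 19 of the 25 fits that left out 1 array, and that of Psmd1 in BPA (0.32) in 9 of 25. Psmd7 rose by 0.60, 0.58 and 0.38 in the 3 groups other than BPA by its brightest probe, but its other 2 probes differed by -0.39 to 0.03 there, and with the mean of its probes the differences were 0.07, 0.19 and -0.12, none passing. Without the E2 1 nM array the third call of the brightest probe was lost too (limma adjusted p = 0.0512). Psmd4, a ubiquitin receptor, and Psmd13 did not pass in any of the 4. Of the 6 ATPases, 4 rose in TMD, PMT and CPM, Psmc1 (0.66), Psmc4 (0.37), Psmc5 (0.29) and Psmc6, and Psmc1 (0.54) and Psmc4 (0.22) rose in DEHP and MPA, the latter call being lost in 5 of the 25 fits that left out 1 array (limma adjusted p = 0.121 without E2 1 nM). Psmc1 was 11.41 to 11.47 in DMSO, E2 and DHT, 11.97 to 12.24 in TMD, PMT and CPM and 11.88 to 12.07 in DEHP and MPA, without overlap. With median scaling Psmc4 (0.21, limma adjusted p = 0.0599), Psmc5 (0.18, limma adjusted p = 0.116) and Psmc6 did not pass in TMD, PMT and CPM, nor did Psmc4 in DEHP and MPA (0.10), so that Psmc1 was the ATPase still called. Psmc6 was detected on 5 of 6 TMD, PMT and CPM arrays and on 0 of the 5 DMSO, E2 and DHT arrays, so that its rise is a bound, at least 1.06-fold, computed against the lowest signal called detected on each array. Its call was lost without the TMD 10 µM array (limma adjusted p = 0.0753). Psmc2 and Psmc3 did not pass by their brightest probe, while a second Psmc2 probe rose by 1.54, 1.56 and 0.54 in TMD, PMT and CPM, in DEHP and MPA, and in T3, DEX, TCDD and PCB.

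The assembly chaperones split. Psmd10 (gankyrin) was lower by 0.43, 0.45 and 0.32 in TMD, PMT and CPM, in DEHP and MPA, and in T3, DEX, TCDD and PCB, and its DMSO, E2 and DHT arrays, at 10.91 to 11.03, lay above all other arrays, which ran from 10.23 to 10.74. Of its 2 other probes, 1 was lower by 0.34 in TMD, PMT and CPM and did not pass in the other two comparisons. The other probe differed by -0.06, -0.12 and -0.16 and did not pass, and the mean of its probes did not pass in T3, DEX, TCDD and PCB (-0.19, limma adjusted p = 0.0538). Psmd10 also did not pass in DEHP and MPA (-0.20) or in T3, DEX, TCDD and PCB (-0.07) with the authors' normalized values. Psmg3 was lower by 0.27, 0.27 and 0.28 in the same 3, the last 2 calls being lost in 4 and 3 of the 25 fits that left out 1 array (highest limma adjusted p = 0.119 without DEHP 1 µM and 0.0726 without DEX 1 nM). Psmg1 was lower by 0.22 in TMD, PMT and CPM and by 0.27 in T3, DEX, TCDD and PCB, the former not without the E2 10 nM (limma adjusted p = 0.0754) or the DHT 1 nM array. Psmd5 rose by 0.54, 0.73 and 0.38 in the 3 comparisons, but its E2 arrays read 8.43 and 9.74, and without the E2 1 nM array none passed (limma adjusted p = 0.203, 0.0945 and 0.594). Psmd9 rose by 0.65 in TMD, PMT and CPM, with 5.97 on the DMSO array, where it was not detected, as the lowest of 25, and did not pass without it (0.39, limma adjusted p = 0.111). Psmg2 differed by -0.02 to 0.17 and did not pass by its brightest probe, while a dimmer one rose by 0.77, 0.70 and 0.56 in the 3 comparisons and another by 0.46 in TMD, PMT and CPM. Of the proteins that are not subunits, Psme3ip1 rose by 0.47, 0.58 and 0.34 in TMD, PMT and CPM, in DEHP and MPA, and in T3, DEX, TCDD and PCB, the last not without the E2 1 nM array (limma adjusted p = 0.0687). Psmc3ip, a meiotic recombination factor, was lower by 0.26 in TMD, PMT and CPM and by 0.36 in T3, DEX, TCDD and PCB, the former not without the DMSO array (limma adjusted p = 0.0662), the E2 1 nM or the PCB 1 nM array.

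Between the micromolar groups, immunoproteasome genes were the only members called. In TMD, PMT and CPM against DEHP and MPA, 0 members were higher (10.8% of all genes) and 2 were lower (9.71%), namely Psmb8 and Psmb10 (-0.59, SE 0.10, limma adjusted p = 0.00047). An unadjusted p under 0.05 was found for 5 of the 43 members and for 3526 of all 10656 genes. The median size of the member differences was 0.0865, against 0.209 for all genes. Without the DEHP 1 µM array 2 members were higher. In BPA against TMD, PMT and CPM, 4 members were higher (16.5% of all genes) and 5 lower (12.6%). Lower were Psmb8 (-1.60), Psmc6, Psmd14 (-1.20), Psmd7 (-0.47) and Psmb10 (-0.44), and higher were Psme3 (0.58), Psmb7 (0.37), Psme4 (0.36) and Psmb3 (0.35). Psmc6 was not detected in BPA, so that its difference is a bound, at least 1.18-fold lower, and it did not pass without the TMD 10 µM array (limma adjusted p = 0.0627). Without the E2 1 nM array 2 members were higher, with Psme3 and Psmb7 not passing (limma adjusted p = 0.116 and 0.0796). This last comparison crossed the authors' normalization sets, and with their normalized values it held 0 higher and 17 lower, whereas after centring each array it held 7 higher and 5 lower.

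Single chemicals were set against the 1 DMSO array and against the other chemicals of their array group. Against DMSO the 12 chemicals gave 516 tests of members, of which 68 were higher (13.2%) and 55 lower (10.7%), with 7.58% and 9.53% of all gene tests. All 12 share that array. E2 and DHT had 0 member calls by limma, and 0% of all genes were called. At an unadjusted p under 0.05 they had 7 and 4 of 43 members, and 1167 and 501 of all 10656 genes. The counts higher and lower were 1 and 2 for T3, 1 and 1 for DEX, 1 and 0 for TCDD, 9 and 5 for PCB, 11 and 9 for TMD, 10 and 10 for PMT, 11 and 8 for CPM, 9 and 7 for DEHP, 10 and 8 for MPA and 5 and 5 for BPA. Of all genes, 2.36% and 1.41% were called for T3, 2.25% and 1.42% for DEX, and 2.01% and 1.24% for TCDD. These shares were 9.11% and 12.5% for PCB, 10.6% and 11.8% for BPA, 10.4% and 14.9% for DEHP, and 11.7% and 16.8% for MPA. For TMD, PMT and CPM they were 14% and 17.8%, 14.5% and 19%, and 14% and 17.4%. Psmd9 (6 chemicals) and Psma8 (4 chemicals) were called against an array that was the lowest or highest of all 25 for them. With the authors' normalized values the calls against DMSO were 136 higher and 14 lower.

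Within its own group only PCB moved a larger set of members. PCB is a hydroxylated biphenyl, given at the same doses as T3, DEX and TCDD. Against those 3 chemicals 8 members were higher in PCB (18.6%, with 11.8% of all genes) and 3 lower (17.2% of all genes). Psmd2, at 8.24 and 7.79 in PCB and 6.65 to 7.45 in the other 6 arrays, rose by 0.97 (SE 0.19, limma adjusted p = 0.000297). Psmd11, at 9.99 and 10.15 against 8.97 to 9.45, rose by 0.93 (SE 0.11, limma adjusted p = 2.65e-07). Psmb5 rose by 0.90 (SE 0.11, limma adjusted p = 6.07e-07). Psmd14, at 11.11 and 11.03 against 10.28 to 10.50, rose by 0.72 (SE 0.12, limma adjusted p = 2.33e-05). Psmc1, an ATPase, at 12.22 and 12.13 against 11.51 to 11.79, rose by 0.57 (SE 0.08, limma adjusted p = 2.39e-06). For these 5 genes both PCB arrays lay above all T3, DEX and TCDD arrays, and the share of all genes that did so was not counted. Psmb9 (0.43), Psmc3ip (0.32) and Psmc5 (0.27) completed the 8, but their calls were lost without 1 PCB array, and that of Psmb9 in 13 of 25 fits in all (limma adjusted p = 0.619 and 0.421 without PCB 10 nM and 0.238 without PCB 1 nM). Psmb4 (by 0.37), Psma2 (by 0.34) and Psmd1 (by 0.28) were lower. With median scaling these 3 were lower by 0.13, 0.11 and 0.16 and did not pass, and Psmd1 did not pass without PCB 10 nM either (limma adjusted p = 0.291).

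In TCDD 2 members were lower within the group, Psmb5 and Psmd11 (both by 0.43, limma adjusted p = 0.0409 and 0.0397), with 0 higher, where 0.685% of all genes were called higher and 1.19% lower. Both genes were high in PCB, which was part of the mean TCDD was set against. Without both PCB arrays the differences were -0.15 and -0.13 and did not pass. Leaving out 1 array ended the calls in 9 and 8 of 25 fits (highest limma adjusted p = 0.341 and 0.471, without TCDD 10 nM). The other 9 chemicals tested within their groups had 0 member calls by limma at the adjusted threshold, with 1 to 5 members each at an unadjusted p under 0.05. Of all 10656 genes, 267 (PMT) to 1753 (E2) had such a p. For each of these 9 chemicals but DEX, 0% of all genes were called too. For DEX 0.338% of all genes were higher and 0.15% lower. The within-group counts over all chemicals, 8 higher and 5 lower, rested on the E2 arrays more than any other comparison: without E2 1 nM they were 17 and 14, and without E2 10 nM the count lower was 10. It was 3 without either TCDD array, without PCB 10 nM and without either TMD array. With 1 array left in E2, that array was taken to vary like the chemicals with both doses.

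Dose made no difference that passed the test. Higher against lower dose, paired within each chemical, 0 members were called among the 5 chemicals given in µM and 0 among the 6 given in nM, and 0% of all genes were. At an unadjusted p under 0.05 there were 2 of 43 members in µM, Psmg2 (0.20) and Psmd1 (-0.14). In nM there were 4, Psme3 (-0.21), Psmd4 (0.15), Psmd13 (0.14) and Psma4 (-0.11). Of all 10656 genes, 610 in µM and 948 in nM had such a p, shares close to those of the members. The doses of Psmb8 lay furthest apart in PMT, at 7.44 and 7.98, which both lay below the DMSO, E2 and DHT arrays.

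Partners of the proteasome outside the symbol rule were taken from lists. Of all genes 25.2% and 29.9% were called higher and lower in TMD, PMT and CPM, 17.3% and 26.3% in DEHP and MPA, 10.7% and 11.9% in T3, DEX, TCDD and PCB, and 13% and 13.3% in BPA. Of 28 listed symbols of partners and regulators, some of them aliases of 1 gene, 19 were on the array and 16 were detected. In TMD, PMT and CPM 7 rose and 1 fell, and in DEHP and MPA 5 rose and 3 fell. In T3, DEX, TCDD and PCB 2 rose and 2 fell, and in BPA 1 rose and 1 fell. Usp14, the reversible deubiquitinase of the cap, rose by 0.90 and 0.77 in TMD, PMT and CPM and in DEHP and MPA. Sem1, the smallest lid subunit, rose by 0.77 and 0.79, and Nfe2l2, the NRF2 factor of the antioxidant response, by 0.74 and 0.79, and by 0.72 in T3, DEX, TCDD and PCB. Ubqln4, a shuttle of ubiquitinated proteins, fell by 0.44, 0.67 and 0.36 in those 3 comparisons. Against the other nanomolar chemicals 5 were higher in PCB and 3 lower, with 11.8% and 17.2% of all genes. Sem1 rose there by 0.75 and Usp14 by 0.63, and Vcp, the unfoldase that hands substrates to the proteasome, fell by 0.41. Of 16 listed symbols for ubiquitin and its conjugation, aliases included, 10 were on the array and all 10 were detected. In TMD, PMT and CPM 6 rose with 0 lower, and in DEHP and MPA 3 rose and 1 fell. In T3, DEX, TCDD and PCB 1 rose and 1 fell, and in BPA 2 rose. Uba6, a ubiquitin-activating enzyme, rose by 1.08 in TMD, PMT and CPM and by 1.04 in BPA. Ube2n, a conjugating enzyme for ubiquitin chains that act in signalling, fell by 0.73 in DEHP and MPA and rose by 0.53 in BPA.

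Genes of antigen processing and the interferon response mostly fell where the immunoproteasome fell. Of 15 listed 14 were on the array under their symbol and 11 were detected. In TMD, PMT and CPM 9 fell and 2 rose, with a median of -0.66 against -0.05 for all genes, and in BPA 6 fell and 0 rose, with a median of -0.55 against 0.05. In DEHP and MPA 3 fell and 2 rose, and in T3, DEX, TCDD and PCB 1 fell and 2 rose, with medians of -0.32 and -0.15. Of all genes, 29.9% were called lower and 25.2% higher in TMD, PMT and CPM, and 13.3% and 13% in BPA. These shares were 26.3% and 17.3% in DEHP and MPA, and 11.9% and 10.7% in T3, DEX, TCDD and PCB. Gbp2, an interferon-induced GTPase, ran from 10.60 to 11.04 in DMSO, E2 and DHT, from 7.84 to 8.43 in TMD, PMT and CPM, and was 6.11 and 6.54 in BPA. It fell by 2.67 in TMD, PMT and CPM (SE 0.16) and fell by 4.52 in BPA (SE 0.23, limma adjusted p = 4.77e-09). Irf1, an interferon-response transcription factor, fell by 0.92 and 1.48, and Tapbp, the MHC class I loading factor tapasin, by 0.83 and 1.06. H2-K1, a class I heavy chain, went the other way in TMD, PMT and CPM, in DEHP and MPA, and in T3, DEX, TCDD and PCB, where it rose by 1.01, 1.21 and 0.70.

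**Figure D4:**
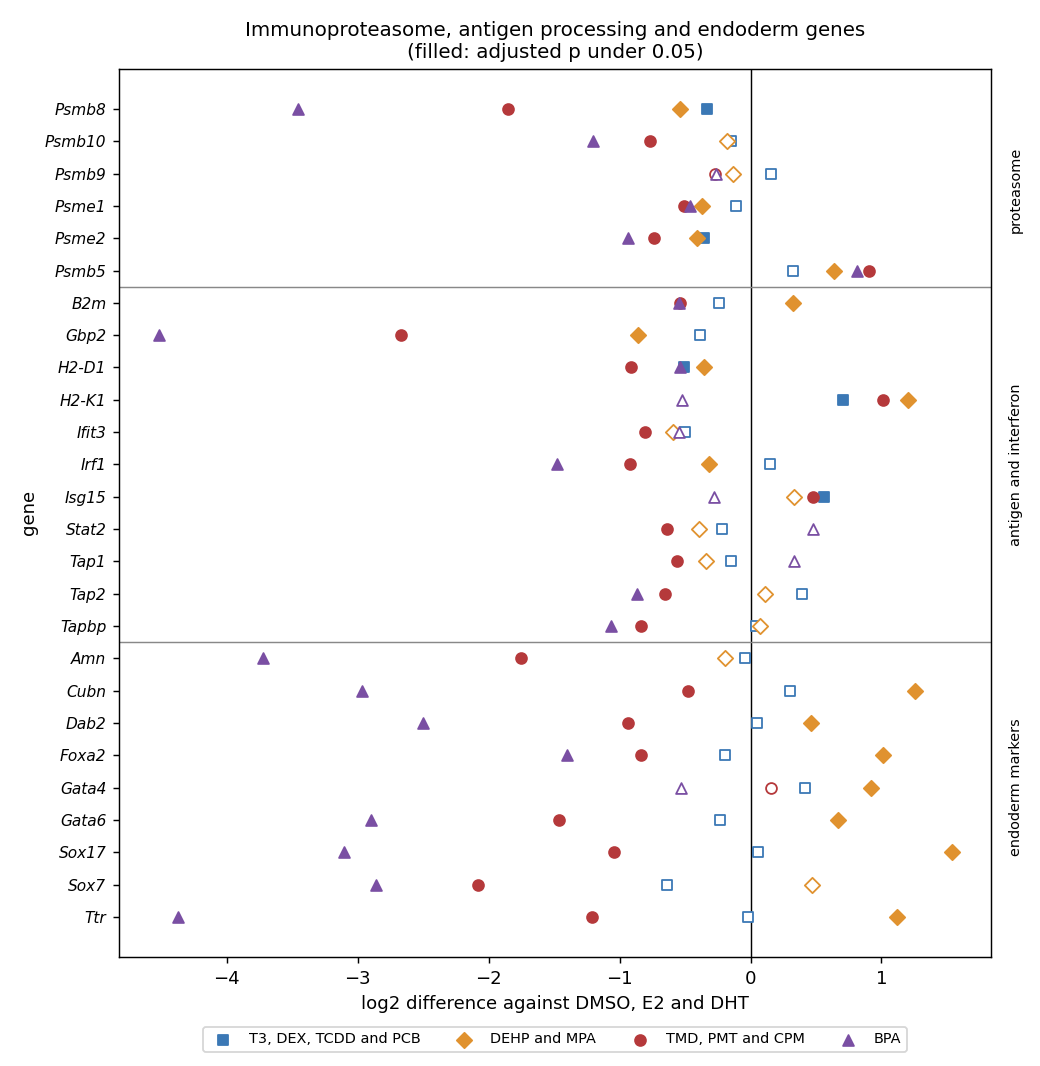
Log2 difference (x axis) of immunoproteasome, PA28 and Psmb5 genes, the 11 detected antigen processing and interferon genes and the 9 detected endoderm markers (y axis) between each of 4 array groups (symbols) and DMSO, E2 and DHT, filled where the adjusted p was under 0.05. In BPA and in TMD, PMT and CPM, Psmb8, Psmb10, Psme2, Gbp2 and 8 of the 9 endoderm markers lie left of 0 and filled, while in DEHP and MPA 7 of the endoderm markers are filled to the right.

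Markers of other cells also moved between the array groups. All 8 pluripotency markers were detected, and their summed linear signal was 29613 to 31039 in DMSO, E2 and DHT, 27587 to 31662 in T3, DEX, TCDD and PCB, 26285 to 28351 in DEHP and MPA, 31797 to 34517 in TMD, PMT and CPM, and 45431 to 45855 in BPA. Against DMSO, E2 and DHT, 3 of the 8 were called higher and 1 lower in BPA, and 3 higher and 0 lower in TMD, PMT and CPM. In DEHP and MPA 2 were higher and 1 lower, and in T3, DEX, TCDD and PCB 1 was higher and 1 lower. Of 10 markers of primitive and visceral endoderm, the extraembryonic layer that covers embryoid bodies, 9 were detected and Afp was not. Their sum was 20942 to 26042 in DMSO, E2 and DHT, 12496 to 27291 in T3, DEX, TCDD and PCB, 24874 to 29257 in DEHP and MPA, 8054 to 9606 in TMD, PMT and CPM, and 2582 to 2703 in BPA. The endoderm sum and Psmb8 both lay in TMD, PMT and CPM above BPA and below the rest. In DEHP and MPA 7 of 9 endoderm markers rose and 0 fell, and in PCB 8 of 9 fell against the other nanomolar chemicals. Of all genes, 17.3% were called higher and 26.3% lower in DEHP and MPA, and 11.8% higher and 17.2% lower in PCB. These shares were 25.2% and 29.9% in TMD, PMT and CPM, 10.7% and 11.9% in T3, DEX, TCDD and PCB, and 13% and 13.3% in BPA. Psmb8 lay at 8.82 to 9.07 in DEHP and MPA, below its 9.44 to 9.69 in DMSO, E2 and DHT. In PCB Psmb8 was 9.20 and 9.26, within its 9.05 to 9.40 in T3, DEX and TCDD. Of 7 fibroblast markers 4 were detected (Col3a1, Lum and Postn were not), with sums of 752 to 988 in DMSO, E2 and DHT, 317 to 414 in TMD, PMT and CPM, 599 to 647 in BPA, 657 to 784 in DEHP and MPA and 517 to 800 in T3, DEX, TCDD and PCB. Against DMSO, E2 and DHT, 3 of the 4 were called lower in TMD, PMT and CPM, 1 in DEHP and MPA and 2 in T3, DEX, TCDD and PCB, with 0 higher. In BPA 1 was higher and 1 lower, with a median of 0.19, although the sum was lower. None of the 4 neural plate markers, Sox1, Pax6, Zic1 and Hes5, was detected. Of 5 mesoderm markers 4 were on the array under their symbol and 2 were detected. The part of cell composition in the differences of the proteasome genes was not tested.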

How the data were processed

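Illumina Mouse WG-6 arrays gave 1 array for each of 25 conditions. The authors deposited non-normalized bead-summary intensity with a detection p-value per probe, which is used here, and a GeneSpring-normalized intensity table, used as an alternative. Between 31.7% and 35% of an array's intensities were below 0. With limma 3.58.1 in R 4.3.3, intensities were background-corrected from the detection p-values (nec, offset 16), quantile-normalized and log2-transformed. A probe was tested if 2 or more arrays had a detection p under 0.01, which left 19140 of 45281. Fits used lmFit and eBayes with trend, with Benjamini-Hochberg adjustment over those probes: chemicals on arrays (12 residual degrees of freedom), array groups on 13 condition means (8), dose with chemical as a block (9). The number of arrays limits the precision. Genes were named through the platform table (34885 probes had 1 symbol, 18 several, 10378 none listed; 34807 matched RefSeq). The kept probe of highest mean signal stood for a gene; 23 members had several.

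Members, lists and comparisons were chosen with earlier results of these data known. Named genes were the catalytic, immunoproteasome, activator, chaperone and tissue-specific members, up to 5 per direction and comparison, and up to 3 per other list; members named beyond these were chosen after their values were seen. The methods' t-test, other normalizations, filters, probe choices and omissions of 1 array were tried. Of unmapped columns there were 0.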

Additional observations from a re-analysis of the deposited data

Results flagged for a closer look

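In 9 of 172 sets of 1 gene in 1 array group, 1 array lay far from its neighbour by Dixon's criterion. The gap was larger than the spread of the group's other arrays allows. Chance alone flags about 1 set in 20, which is close to the share flagged here. 4 of the 9 were on the E2 10 nM array, within DMSO, E2 and DHT: Psme3 at 10.86 (nearest array 11.65), Psmd4 at 14.47 (14.13), Psmd7 at 12.53 (12.14) and Psma5 at 14.44 (14.30). Psme3 was the largest gap of them, and it was the low side, whereas the other 3 were high. In DEHP and MPA the MPA 100 µM array was high for Psma5 at 14.47 (14.23) and Psmc4 at 13.42 (13.23). In the nanomolar group the PCB 10 nM array was high for Psme2 at 10.03 (9.79) and low for Psme3 at 11.18 (11.39). Psmd11 was high on the TMD 10 µM array at 9.95 (9.84). The cause of these gaps was not tested.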

How the results depend on the processing

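Of 98 gene results past the threshold, 97 kept their direction and call with a floor in place of background correction, 82 with median scaling, 90 without a filter, 79 without the variance trend, 79 with the mean of a gene's probes, 63 with the authors' normalized values and 40 of 87 with the methods' t-test; 36 lost their call without some single array. The fall of Psmb8 and Psmb10 in TMD, PMT and CPM against DMSO, E2 and DHT passed under all of these. Signs turned with the authors' values for Psmg1 (0.022) and Psmb1 (0.027) in TMD, PMT and CPM, and with the mean of probes for Psmb8 in DEHP and MPA (0.0439) and in T3, DEX, TCDD and PCB (0.21), Psmd7 in the latter (-0.12) and in BPA against TMD, PMT and CPM (0.033), and Psmd1 in PCB (0.0295).

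Counts are given as higher and lower. The authors' values gave 136 and 14 for chemicals against DMSO, 26 and 5 for TMD, PMT and CPM, 20 and 0 for DEHP and MPA, 22 and 0 for T3, DEX, TCDD and PCB, and 0 and 17 for BPA against TMD, PMT and CPM (7 higher once arrays were centred). The mean of probes gave 15 and 3 within groups, 5 lower for T3, DEX, TCDD and PCB, 1 higher for TMD, PMT and CPM against DEHP and MPA, and 2 and 10 for BPA against TMD, PMT and CPM. Median scaling gave 1 lower within groups, 1 higher for BPA and 2 higher for BPA against TMD, PMT and CPM. Within groups, 8 were lower with a dose term or only probes detected on all arrays, 3 with no filter, 5 and 3 were called without the trend (3 higher for BPA), and 0 and 0 without both PCB arrays. The methods' t-test gave 5 higher within groups, 5 and 4 for DEHP and MPA, 1 and 1 for T3, DEX, TCDD and PCB, and 0 and 0 for BPA, where 10 members had an unadjusted p under 0.05. Single arrays gave 7 lower for BPA, 2 higher for TMD, PMT and CPM against DEHP and MPA, and 7 and 9 for BPA against TMD, PMT and CPM. Leaving out 1 array gave 6 to 17 and 3 to 14 within groups, 2 to 8 and 6 to 10 for T3, DEX, TCDD and PCB, 3 to 6 and 3 to 6 for BPA, 0 to 2 and 2 to 3 for TMD, PMT and CPM against DEHP and MPA, 2 to 5 and 4 to 7 for BPA against TMD, PMT and CPM, 63 to 83 and 51 to 72 against DMSO, 14 to 17 and 10 to 13 for TMD, PMT and CPM, and 10 to 14 and 9 to 14 for DEHP and MPA. The causes were not tested.

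No paired analysis was possible between chemicals because a replicate number marks a dose and pairs no cultures, whereas the doses were compared within each chemical. Doses and chemicals stood in for replicates, and DMSO had 1 array. Probes near background, such as that of Psmc6, give bounds only.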
